A study of Mus musculus with 6 samples.

Results

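The 92 genes described here encode the nuclear-encoded subunits of the mitochondrial respiratory chain and the ATP synthase, with some of their assembly factors. They were chosen by symbol alone from the 18493 genes of the deposited table: symbols that begin with Nduf, Uqcr, Atp5 or Cox4 to Cox8, together with Sdha, Sdhb, Sdhc and Sdhd. The symbol rule uses no measured value, but the set was chosen with earlier results of these data known. Sorted by complex, they were 38 subunit genes of complex I, 8 assembly factors of complex I, 4 genes of complex II, 8 of complex III, 17 of complex IV and 17 of complex V. Ndufa4, which is named for complex I, was counted with complex IV, to which its protein is now assigned. The mitochondrially encoded subunits were not analysed here.

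The respiratory chain sits in the inner membrane of the mitochondrion. Complex I takes electrons from NADH and complex II takes them from succinate, both pass them to coenzyme Q, complex III hands them on to cytochrome c, and complex IV uses them to reduce oxygen. Complexes I, III and IV pump protons as they do so, and complex V, the ATP synthase, makes ATP from the returning protons. Regulatory T (Treg) cells, a CD4 T cell lineage defined by the transcription factor Foxp3 that holds other immune cells in check, are known to rely on oxidative phosphorylation.

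The study deleted Tkt, which encodes transketolase, an enzyme of the non-oxidative pentose phosphate pathway, in Treg cells. RNA was sequenced from Treg cells sorted as CD4+CD25+YFP+ from spleen and lymph node of untreated female C57BL/6 mice at 7 weeks of age, with 3 libraries for each genotype. Both genotypes carried 1 Cre allele at the X-linked Foxp3 locus (Foxp3cre/+), which drives Cre in Treg cells. The control mice (WT) carried this allele alone, and the conditional knockout mice (cKO) carried it with floxed Tkt (Foxp3cre/+ TKTfl/fl). The design text calls both genotypes chimeric: females with a single Cre allele are mosaics for it, and the YFP gate takes the cells in which it is active. It does not say whether a library pools mice. The p-values below therefore set the genotype difference against the spread between libraries within a genotype, which need not be that between mice.

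The libraries held 17180577 to 18215168 estimated reads, of which the 92 genes took 0.43% to 0.48%. Tkt, on chromosome 14 (30549131 to 30574724, mm10), stood at 126, 97.1 and 120.6 CPM in WT1 to WT3 and at 52.5, 44.8 and 31.9 CPM in cKO1 to cKO3. The genotypes did not overlap, and the log2 fold change was -1.41 ± 0.19 (SE), with an adjusted p of 0.0516 by edgeR's quasi-likelihood test over all genes, just short of the threshold of 0.05. CPM is counts scaled to library size after TMM scaling, and every fold change below is log2 of cKO over WT. Markers of the sorted and of other cells were summed as CPM before TMM scaling. The 8 of 9 listed Treg and CD4 T cell markers that the table holds, Foxp3 and Il2ra among them, summed to 4979 to 5183 CPM in WT and 4502 to 4561 CPM in cKO. Every cKO sum thus lay below every WT sum. Taken singly, Ikzf2 and Cd3g were lower in cKO without overlap, and the other markers of this list overlapped. The summed markers of B cells (44.65 to 97.79 CPM over all libraries), CD8 T and NK cells (29.85 to 38.88 CPM), myeloid cells (29.33 to 83.86 CPM) and plasma cells (0.94 to 2.23 CPM) overlapped between the genotypes. The 5 markers of stroma and endothelium, nearly all of it Pecam1, summed to 191.7 to 212.6 CPM in WT and 212.3 to 248.3 CPM in cKO, which overlapped only at their edges. After TMM scaling Pecam1 alone stood at 186.9 to 205.2 CPM in WT and 205.3 to 235.1 CPM in cKO. These did not overlap but all but touched (edgeR adjusted p 0.782). Of the others, Cdh5 and Pdgfrb were too low to be tested, and Col1a1 was at most 12.48 CPM after TMM scaling. Signs of RNA handling and stimulation (6 genes) summed to 5035 to 6588 CPM in WT and 3687 to 5971 CPM in cKO. The 7 erythroid markers summed to 0.28 to 5.62 CPM in WT, to 4.06 and 3.62 CPM in cKO2 and cKO3, and to 192.9 CPM in cKO1. No marker of these lists was called. The library cKO1 also stood apart in short genes and in the genes described here, and values without it are given below.

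Upstream sequence was looked at because genes of the respiratory chain are known for promoters that lack a TATA box and that bind nuclear respiratory factor 1 (NRF1) and the ETS factor GABP. RefSeq promoters, 250 bases before to 50 bases after the annotated start, were at hand for 75 of the 92 genes (GRCm38.p6, the same build as mm10). The NRF1 motif searched was GCGCA, any base, GCGC, and it stood on either strand of 19 of the 75 promoters (25.3%), against 5.2% of the promoters of all 27025 genes with one and 11.5% of those of 9900 genes tested for expression. The 120 bases before the start are shown for 6 genes, chosen to show how such matches lie. Sdha and Ndufb4 carry repeated NRF1 matches, and Sdhd and Cox6a1 an NRF1 and an ETS match. Uqcrh and Cox6b1, whose differences described below did not pass the threshold, carry an ETS match close to the start. Cox6b2, Ndufs5 and Ndufa3, whose differences below are larger in size, had no ETS match. Capitals mark the NRF1 and ETS matches. All 6 genes lie on the minus strand and are printed 5′ to 3′ along the gene, from chr13:74350241-74350360 for Sdha, chr16:37654369-37654488 for Ndufb4, chr9:50603850-50603969 for Sdhd, chr5:115348959-115349078 for Cox6a1, chr4:116075071-116075190 for Uqcrh and chr7:30626115-30626234 for Cox6b1.
Sdha: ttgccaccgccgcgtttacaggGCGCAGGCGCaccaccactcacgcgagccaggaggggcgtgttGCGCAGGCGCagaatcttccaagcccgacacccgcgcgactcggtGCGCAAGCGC
Ndufb4: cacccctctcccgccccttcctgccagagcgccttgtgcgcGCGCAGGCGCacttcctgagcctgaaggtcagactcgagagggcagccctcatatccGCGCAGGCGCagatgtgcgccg
Sdhd: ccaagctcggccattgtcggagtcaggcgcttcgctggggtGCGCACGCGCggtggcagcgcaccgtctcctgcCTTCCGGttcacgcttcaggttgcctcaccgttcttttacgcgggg
Cox6a1: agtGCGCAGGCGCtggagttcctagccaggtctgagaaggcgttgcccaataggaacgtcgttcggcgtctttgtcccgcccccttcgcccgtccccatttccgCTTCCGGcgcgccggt
Uqcrh: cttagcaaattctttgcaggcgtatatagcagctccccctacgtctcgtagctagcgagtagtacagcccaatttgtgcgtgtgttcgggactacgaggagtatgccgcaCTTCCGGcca
Cox6b1: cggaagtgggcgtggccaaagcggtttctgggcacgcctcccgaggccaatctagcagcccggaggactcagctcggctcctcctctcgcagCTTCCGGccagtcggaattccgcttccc

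In these windows the NRF1 matches of Sdha begin 98, 55 and 10 bases before the start, and those of Ndufb4 begin 79 and 22 bases before it. Sdhd has its NRF1 match at 79 bases and its ETS match at 46 bases, and Cox6a1 at 117 and 16 bases. The ETS matches of Uqcrh and Cox6b1 begin 10 and 28 bases before the start.

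The ETS motif CCGGAAG was found in 18 of the 75 promoters (24%, against 9.9% of all promoters and 20.5% of those of tested genes). The motif AAGATGGC of the factor YY1 was found in 11 (14.7%, against 3.2% and 5.4%), and the motif AAGGTCA of the estrogen-related receptors in 8 (10.7%, against 5.4% and 3.9%). A cyclic AMP response element, TGACGTCA, was in 4 (5.3%, against 2.0% and 3.5%). An E-box, CACGTG, was in 6 (8.0%, against 8.1% and 11.6%), and TATAAA was in 6 (8.0%, against 15.7% and 8.8%). At least 1 of the NRF1, ETS and YY1 motifs stood in 41 of the 75 (54.7%), against 16.4% of all promoters and 32.9% of those of tested genes. By complex, NRF1 matches were in 7 of 32 promoters of complex I, 2 of 7 of its assembly factors, 2 of 3 of complex II, 1 of 5 of complex III, 1 of 13 of complex IV and 6 of 15 of complex V. Both strands were searched, each motif was counted on its own even where matches of different motifs overlap, and a match describes these letters only. The motifs were chosen after the expression results were known.

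Transcript levels were compared between genes by the deposited values judged to be FPKM, which are read levels scaled for gene length and library depth. The genes as a set were abundant: the median of the 86 that passed the filter on low counts was 47.6 FPKM, against 9.5 FPKM for the 12887 genes tested. Subunits of complex IV (median 139 FPKM, 13 genes) and complex V (123 FPKM, 16 genes) stood highest. Complex III (59.3 FPKM, 8 genes), complex II (46.6 FPKM, 4 genes) and complex I (40.2 FPKM, 37 genes) followed. The 8 complex I assembly factors, which build the complex and do not stay in it, had a median of 6.6 FPKM and a range of 3.88 (Ndufaf6) to 14.3 FPKM (Ndufaf8). The most abundant single transcripts were Atp5b (259.8 FPKM), the catalytic beta subunit of the ATP synthase, and Cox7a2l (256.1 FPKM), described as a supercomplex assembly factor. Uqcrh (209.4 FPKM), the hinge protein of complex III, and Cox4i1 (204.9 FPKM), the ubiquitous form of subunit 4, came next. Atp5s, a factor associated with the ATP synthase, had 1.90 FPKM and was the lowest of the tested complex V genes.

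**Figure D1:**
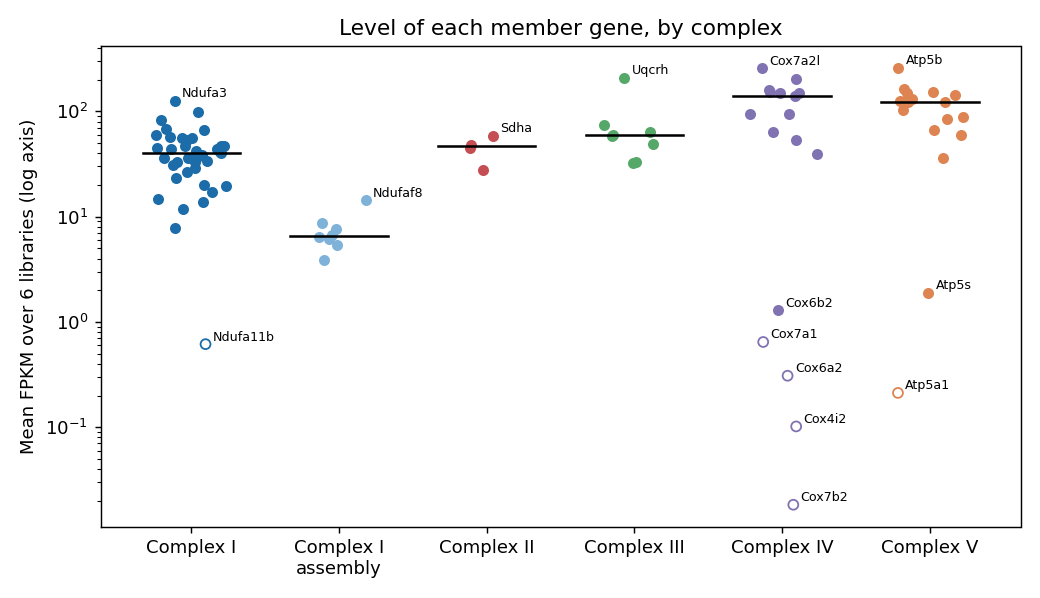
Mean deposited FPKM over the 6 libraries (log axis) of each gene, by complex. Filled points passed the filter on low counts, open points did not, and bars mark the median of the tested genes, 6.6 FPKM for the complex I assembly factors and 139 FPKM for complex IV. Of the open points, Atp5a1 stands among the tissue-restricted isoforms, far below the other F1 subunits.

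Deletion of Tkt was accompanied by no called change in any of these genes. Of the 86 tested, 0 passed an adjusted p of 0.05 in edgeR, where 27 of 12887 genes did (0.21%), 26 of them lower in cKO (0.202%) and 1 higher (0.00776%). DESeq2 called 0 of the 86, against 1.37% of all genes, and limma-voom called 0, against 0.147%. At an unadjusted p under 0.05 the count among the 86 was 0 with edgeR, against 7.69% of all genes, 0 with DESeq2, against 6.55%, and 0 with limma-voom, against 7.88%. The lowest adjusted p was 0.680, for Uqcrh. In bulk RNA of this kind, fewer cells of a type and less RNA per cell cannot be told apart. With 3 libraries against 3, an exact two-sided permutation test of a single gene cannot go below 0.1.

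The fold changes were small and centred near 0. Their median was -0.016 over the 86 genes and 0.004 over all genes tested, and the median size, regardless of sign, was 0.068 against 0.105. The values ran from -0.42 (Cox6b2) to 0.18 (Ndufaf5), and 48 of 86 were negative (55.8%, against 48.6% of all genes). For 78 of the 86 genes (90.7%) the 95% interval of the fold change lay within -0.5 to 0.5, which is 1.41-fold either way. The share over all genes was 57.5%, at a median standard error of 0.092 for the 86 and 0.129 for all genes. The 8 genes with wider intervals were Ndufs5, Ndufb4c, Ndufaf1, Ndufaf3, Ndufaf6, Cox6b2, Atp5g2 and Atp5s. Across the 6 libraries the highest value of a gene was 1.22 times its lowest (median of the 86), against 1.37 times over 12760 tested genes with no library at 0. The ratio passed 1.5 in 5 of the 86: Ndufb4c (2.64), Cox6b2 (2.2), Atp5g2 (1.82), Ndufs5 (1.56) and Ndufaf1 (1.55).

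**Figure D2:**
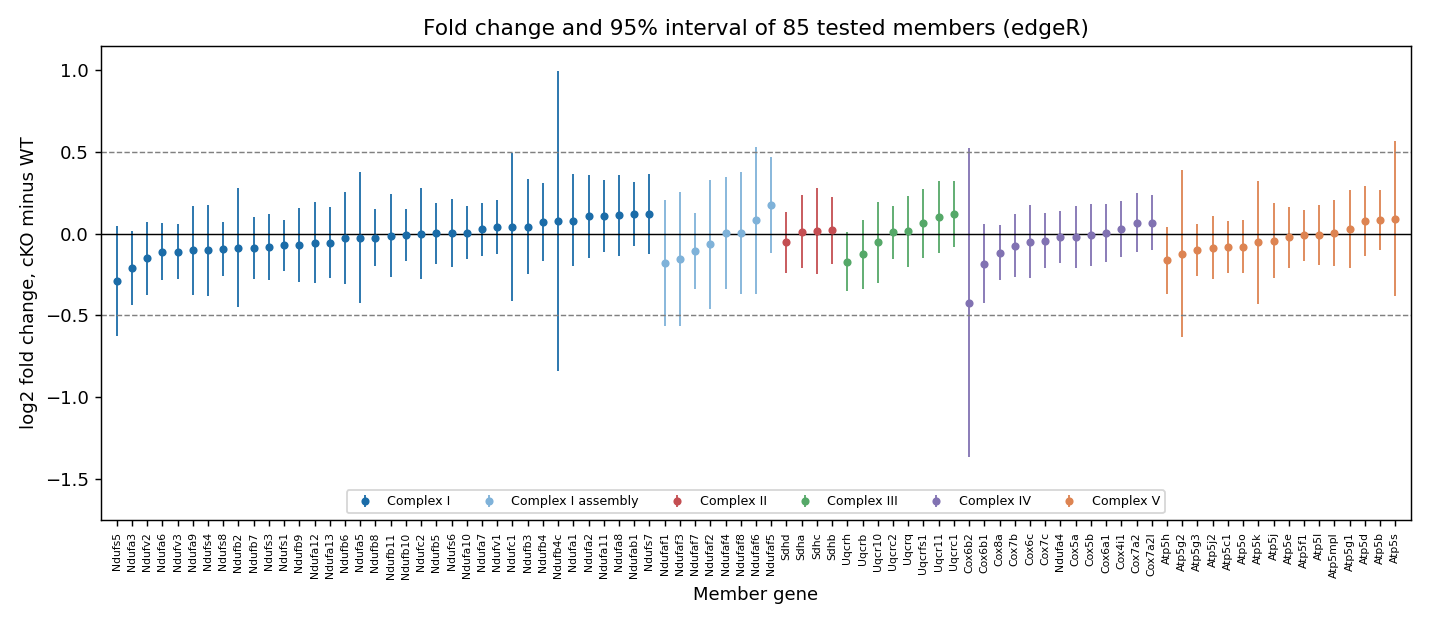
Log2 fold change (cKO minus WT) of 85 of the 86 tested genes with its 95% interval from edgeR, coloured by complex. Dashed lines mark -0.5 and 0.5, and 77 of these intervals lie between them. The widest belong to Cox6b2 and Ndufb4c.

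In 9 of the 86 genes (10.5%) the 3 libraries of each genotype did not overlap, against 14.2% of all genes tested. All 9 were lower in cKO, where the share over all genes was 8.12%, and 0 were higher, against 6.1%. They were Ndufs1, Ndufs8, Ndufv3 and Ndufa3 of complex I, the assembly factor Ndufaf7, Uqcrh of complex III, Cox6b1 and Cox8a of complex IV, and Atp5c1 of complex V. The lowest of the 6 libraries was cKO1 in 8 of the 9 genes, Ndufv3 being the exception. Without cKO1 the fold changes of the 9 lay between -0.13 and -0.04, with adjusted p of 0.894 to 0.954.

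Complex I has a core of subunits that carry the electron path and a shell of accessory subunits. The 7 nuclear-encoded core genes had a median fold change of -0.071 and the 30 tested accessory genes one of -0.009. Over all tested genes of complex I the median was -0.013, and it was 0.018 without cKO1. In the core, Ndufv2, an iron-sulfur subunit of the NADH-oxidising module, had the lowest p. It stood at 55.3, 50.6 and 57.8 CPM in WT1 to WT3 and at 44.5, 49.7 and 53.5 CPM in cKO1 to cKO3. The genotypes overlapped, with cKO3 inside the WT range, and the fold change was -0.15 ± 0.10 (interval -0.37 to 0.07, adjusted p 0.824). Ndufs1, the largest iron-sulfur subunit of the same module, stood at 65.9, 64.2 and 67.3 CPM in WT1 to WT3 and at 60.1, 63.6 and 64.2 CPM in cKO1 to cKO3, and its fold change was -0.07 ± 0.07 (adjusted p 0.911). Its groups all but touched, at WT2 and cKO3. Ndufv1, which binds the flavin that accepts electrons from NADH, had a fold change of 0.04 ± 0.07. Ndufs7, an iron-sulfur subunit at the quinone-binding site, had 0.12 ± 0.10. None of the core intervals reached -0.5 or 0.5.

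Ndufa3, a small accessory subunit and the most abundant complex I transcript (126.2 FPKM), stood at 44.6, 40.5 and 43.9 CPM in WT1 to WT3 and at 32.9, 39.9 and 38.7 CPM in cKO1 to cKO3. The means were 43.02 ± 2.17 CPM for WT against 37.2 ± 3.77 CPM for cKO (SD, n = 3 each). All cKO libraries lay below all WT libraries, with cKO1 well below the rest, and the fold change was -0.21 ± 0.10 (interval -0.44 to 0.01, adjusted p 0.684). Ndufs5 stood at 15.6, 11.8 and 14.4 CPM in WT1 to WT3 and at 10, 12.3 and 11.97 CPM in cKO1 to cKO3. WT2 fell inside the cKO range, and the fold change of -0.29 ± 0.14 was the largest in complex I (adjusted p 0.745). A transcript of another gene is nearly identical to that of Ndufs5, so its reads may be shared. Ndufa6, the next most abundant accessory subunit (98.8 FPKM), had a fold change of -0.11 ± 0.07 (adjusted p 0.840). On the positive side, Ndufab1, the mitochondrial acyl carrier protein, had 0.12 ± 0.08 and Ndufa8 0.11 ± 0.10. Ndufb4c, a paralog of Ndufb4, ranged from 2.73 CPM in cKO1 to 7.21 CPM in WT1, and the interval of its fold change ran from -0.84 to 0.999.

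The assembly factors of complex I had 4 negative and 4 positive fold changes, with a median of -0.03. Ndufaf5 stood at 7.76, 7.83 and 9.01 CPM in WT1 to WT3 and at 9.36, 8.99 and 9.47 CPM in cKO1 to cKO3, and its fold change of 0.18 ± 0.12 was the highest of all 86 genes (adjusted p 0.848). WT3 fell between the lowest and middle cKO libraries. Ndufaf1 stood at 10.5, 8.25 and 8.67 CPM in WT1 to WT3 and at 6.80, 8.83 and 8.63 CPM in cKO1 to cKO3, with a fold change of -0.18 ± 0.16 (adjusted p 0.908). WT1 was its highest and cKO1 its lowest library, the others lay close together, and without WT1 the fold change was -0.06. Ndufaf7, a methyltransferase, had -0.11 ± 0.10, and Ndufaf8 had 0.01 ± 0.16.

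Complex II, the succinate dehydrogenase, also works in the citric acid cycle and has no mitochondrially encoded subunit. Its 4 genes had fold changes of -0.05 to 0.02. Sdha, the flavoprotein that oxidises succinate, stood at 180.5, 146.9 and 176.2 CPM in WT1 to WT3 and at 162.5, 175.1 and 170.7 CPM in cKO1 to cKO3. WT2 was the lowest library and the cKO values lay inside the WT range, with a fold change of 0.01 ± 0.10 (interval -0.21 to 0.24). Sdhb, the iron-sulfur subunit, had 0.02 ± 0.09. The membrane anchors Sdhc and Sdhd had 0.01 ± 0.11 and -0.05 ± 0.08. Sdhc stood at 56.8, 44.7 and 55.1 CPM in WT1 to WT3 and at 48.3, 55.4 and 54.6 CPM in cKO1 to cKO3, with WT2 again lowest, and Sdhd did not share that pattern.

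In complex III the median fold change was 0.012, with 5 of 8 genes positive, and it was -0.013 without WT3. Uqcrh, the hinge protein beside cytochrome c1, stood at 114.8, 119.5 and 111.1 CPM in WT1 to WT3 and at 96.1, 109.6 and 101 CPM in cKO1 to cKO3. The means were 115.1 ± 4.21 CPM for WT against 102.2 ± 6.84 CPM for cKO (SD, n = 3 each). The highest cKO library, cKO2, lay just under the lowest WT library, and the fold change was -0.17 ± 0.08 (interval -0.35 to 0.01, adjusted p 0.680). Uqcrb, a ubiquinone-binding subunit, had -0.13 ± 0.09 (adjusted p 0.853), and 3 other transcripts are nearly identical to it. Uqcrfs1, the Rieske iron-sulfur protein, stood at 40.5, 46.6 and 40.1 CPM in WT1 to WT3 and at 47.2, 42.7 and 43.2 CPM in cKO1 to cKO3, and its fold change was 0.07 ± 0.09. WT2 was close to the highest cKO library there. The core proteins Uqcrc1 and Uqcrc2 had 0.12 ± 0.09 and 0.01 ± 0.07. That of Uqcrc1 was 0.05 without WT2 and 0.185 without WT1. Over the 6 libraries the genes whose log2 CPM ran most like that of Uqcrh were Ndufa6 (Pearson's r = 0.976), Cox8a (0.953), Uqcrb (0.901), Ndufaf7 (0.89) and Atp5c1 (0.844). These r describe 6 libraries that share their preparation, and cKO1 was the lowest of them for each of these genes.

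Several subunits of complex IV have tissue isoforms, and the sorted cells expressed mainly the ubiquitous form of each. Cox4i1 made up 99.9% to 100% of the FPKM of subunit 4 in each library, beside the oxygen-regulated lung form Cox4i2. Cox6a1 made up 99.4% to 100% of subunit 6A, beside the heart and muscle form Cox6a2, and Cox6b1 98.8% to 99.5% of subunit 6B, beside the testis form Cox6b2. Cox7a2 made up 97.7% to 98.7% of the pair with the heart and muscle form Cox7a1. Cox7b made up 99.8% to 100% of the pair with the testis form Cox7b2. In every library of both genotypes the ubiquitous form held at least 97.7%. The untested forms were near 0 throughout: Cox7a1 at 0.51 to 0.98 FPKM, Cox6a2 at 0 to 0.84, Cox4i2 at 0 to 0.24 and Cox7b2 at 0 to 0.11. Ndufa11b, the untested paralog of Ndufa11 in complex I, was at 0 to 1.7 FPKM.

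The 13 tested genes of complex IV had a median fold change of -0.021, and 9 of 13 were negative. Cox6b1, which links the monomers of the complex IV dimer, stood at 82.6, 77.8 and 81.5 CPM in WT1 to WT3 and at 60.8, 75.6 and 76.8 CPM in cKO1 to cKO3. The low value was that of cKO1, while cKO2 and cKO3 lay just under WT2. The means were 80.6 ± 2.53 CPM for WT against 71.1 ± 8.89 CPM for cKO (SD, n = 3 each), the fold change -0.18 ± 0.10 (interval -0.42 to 0.06) and the adjusted p 0.785. Cox8a stood at 78.5, 82.8 and 80.2 CPM in WT1 to WT3 and at 69.8, 78.1 and 74.8 CPM in cKO1 to cKO3, with a fold change of -0.12 ± 0.07 (adjusted p 0.820). Here too cKO1 was lowest. Cox4i1 stood at 144.7, 145.3 and 148.2 CPM in WT1 to WT3 and at 139.7, 158 and 148.6 CPM in cKO1 to cKO3, with a fold change of 0.03 ± 0.07 and the highest value in cKO2. Cox7a2l had 0.07 ± 0.07 and Ndufa4 -0.02 ± 0.07. Cox6a1, Cox7a2 and Cox7b had 0.01 ± 0.07, 0.07 ± 0.08 and -0.07 ± 0.08. The lowest fold change of the set, -0.42 ± 0.40 for Cox6b2, rested on less than 1 CPM in every library, and its interval ran from -1.37 to 0.52. It was -0.14 without WT3 and -0.67 without WT1.

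Complex V had a median fold change of -0.032, with 11 of 16 genes negative. In its catalytic F1 part, Atp5b stood at 495.4, 442.2 and 480.4 CPM in WT1 to WT3 and at 479.2, 516.8 and 507.3 CPM in cKO1 to cKO3, with a fold change of 0.08 ± 0.08 (interval -0.10 to 0.27). Its lowest library was WT2 and its highest cKO2. Atp5c1, the gamma subunit that turns within F1, stood at 143.7, 147.8 and 143.6 CPM in WT1 to WT3 and at 131.1, 138.6 and 142 CPM in cKO1 to cKO3. The cKO libraries lay narrowly below the WT libraries, and the fold change was -0.08 ± 0.07 (adjusted p 0.897). Atp5d, the delta subunit of the central stalk, had 0.08 ± 0.09. In the peripheral stalk, which keeps F1 from turning, Atp5h had the lowest p of the complex. It stood at 95.7, 89.3 and 88.4 CPM in WT1 to WT3 and at 74.2, 81.1 and 88.9 CPM in cKO1 to cKO3, with a fold change of -0.16 ± 0.09 (interval -0.37 to 0.04, adjusted p 0.781). Its value in cKO3 lay above the lowest WT value. Near-identical transcripts of other genes exist for Atp5h (3) and Atp5c1 (1), so their reads may be shared.

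Atp5a1, which encodes the alpha subunit that alternates with beta in F1, was listed at 0, 0 and 0 FPKM in the WT libraries and at 0.97, 0.3 and 0 FPKM in the cKO libraries. It did not pass the filter, and no fold is given against a group listed at 0. Its partner Atp5b averaged 259.8 FPKM in the same libraries, and alpha and beta enter F1 in equal numbers. No transcript of another gene was nearly identical to that of Atp5a1 in GENCODE M21. The assignment of reads to Atp5a1 before deposit was not given in the sources used here, so these values are not read as its expression.

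Subunit c, which forms the rotating ring of the ATP synthase, is encoded by Atp5g1, Atp5g2 and Atp5g3, whose mature proteins are the same. Atp5g2 stood at 76.97, 127.5 and 91.2 CPM in WT1 to WT3 and at 94.3, 107.6 and 69.96 CPM in cKO1 to cKO3. It was highest in WT2 and lowest in cKO3, the spread within each genotype exceeded the difference between them, and the fold change was -0.12 ± 0.22. Atp5g3 had -0.10 ± 0.07 (adjusted p 0.844) and Atp5g1 0.03 ± 0.10. As shares of the summed FPKM of the 3 genes, Atp5g2 gave 48.5% ± 7.3 in WT and 47.8% ± 4.5 in cKO (SD, n = 3 each), Atp5g3 40.2% ± 6.2 and 40.0% ± 4.4, and Atp5g1 11.3% ± 1.1 and 12.2% ± 0.5. The share of Atp5g2 was highest in WT2, at 56.5%, where that of Atp5g3 was lowest, at 33.4%. Transcripts of 2 other genes are nearly identical to that of Atp5g2. Atpif1, the inhibitor of the ATP synthase and outside the 92 genes, stood at 25.01, 21.9 and 20.9 CPM in WT1 to WT3 and at 17.1, 21.4 and 19.9 CPM in cKO1 to cKO3, with a fold change of -0.22 ± 0.12 (adjusted p 0.781).

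**Figure D3:**
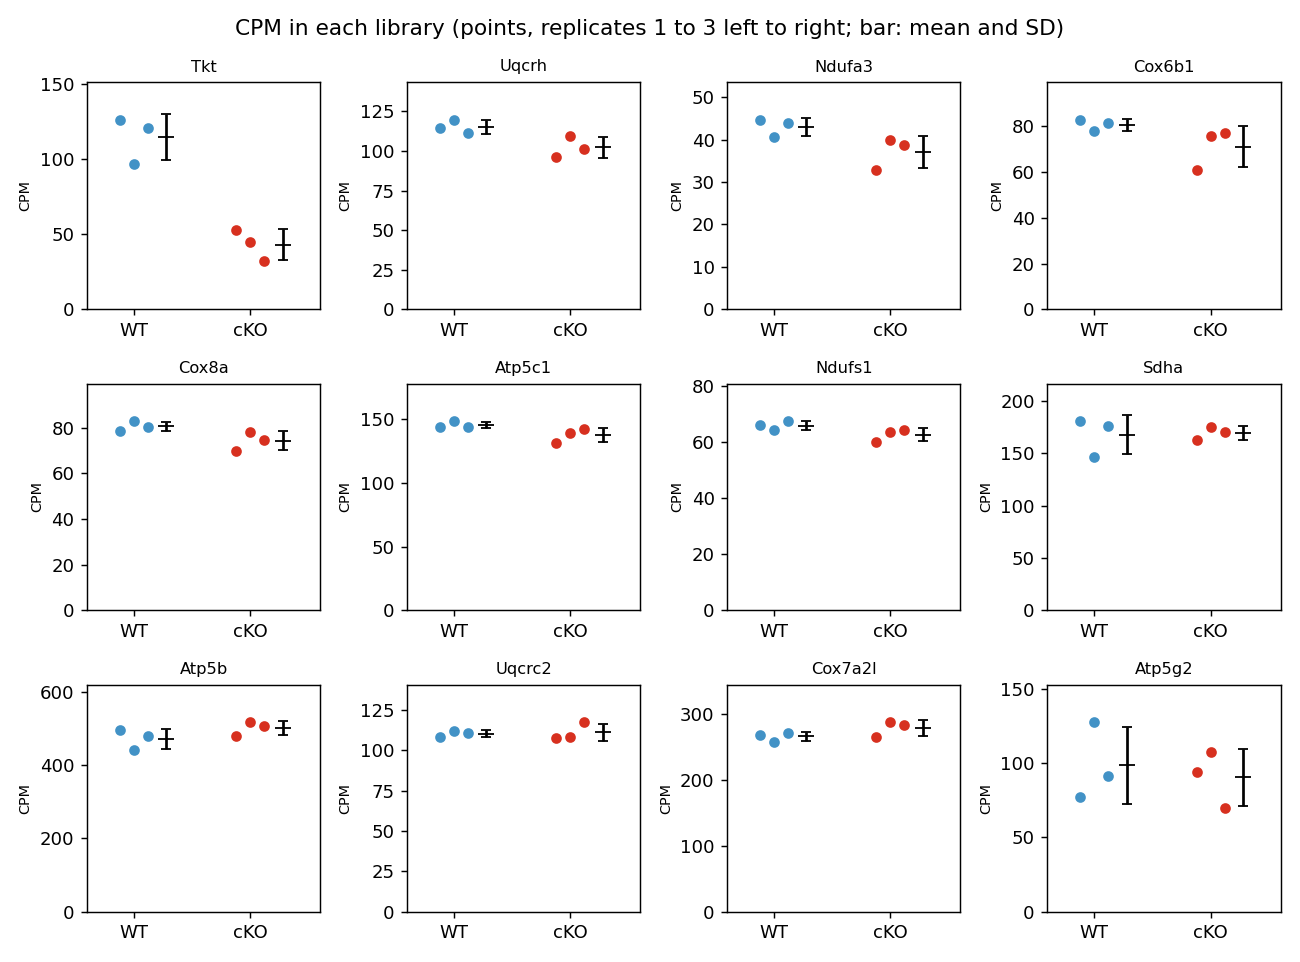
CPM of Tkt and 11 genes of the respiratory chain and ATP synthase in each library, with group means and SD. Tkt separates the genotypes widely. Uqcrh, Ndufa3, Cox6b1, Cox8a, Atp5c1 and Ndufs1 show cKO below WT without overlap, and in each of them the lowest point is cKO1. Atp5g2 spreads widely within both genotypes.

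Taken over all 86 genes, the library cKO1 deviated most. The mean log2 CPM of the 86 genes was 5.12, 5.08 and 5.08 in WT and 4.99, 5.12 and 5.07 in cKO. The group means were 5.09 ± 0.02 and 5.06 ± 0.07 (SD, n = 3 each), and cKO2 was as high as WT1. In cKO1 the median deviation of the 86 genes from their own mean over the libraries was -0.057, where that of all genes tested was 0.005. It was negative in every set there: -0.042 in complex I, -0.063 in its assembly factors, -0.056 in complex II, -0.034 in complex III, -0.076 in complex IV and -0.094 in complex V. Other libraries deviated more in some sets: WT1 by 0.068 in complex I, and WT2 by 0.108 in its assembly factors and 0.058 in complex III. In complexes II, IV and V cKO1 deviated most. The library cKO2 was positive in every set, from 0.024 in complex IV to 0.054 in complex II. The lowest of the 6 libraries was cKO1 for 36 of the 86 genes (41.9%) and for 20.4% of all genes tested. Within complex II it was the lowest for 0 of 4 genes. Without cKO1 the median fold change of the tested genes was 0.011, and that of complex V was 0.03.

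**Figure D4:**
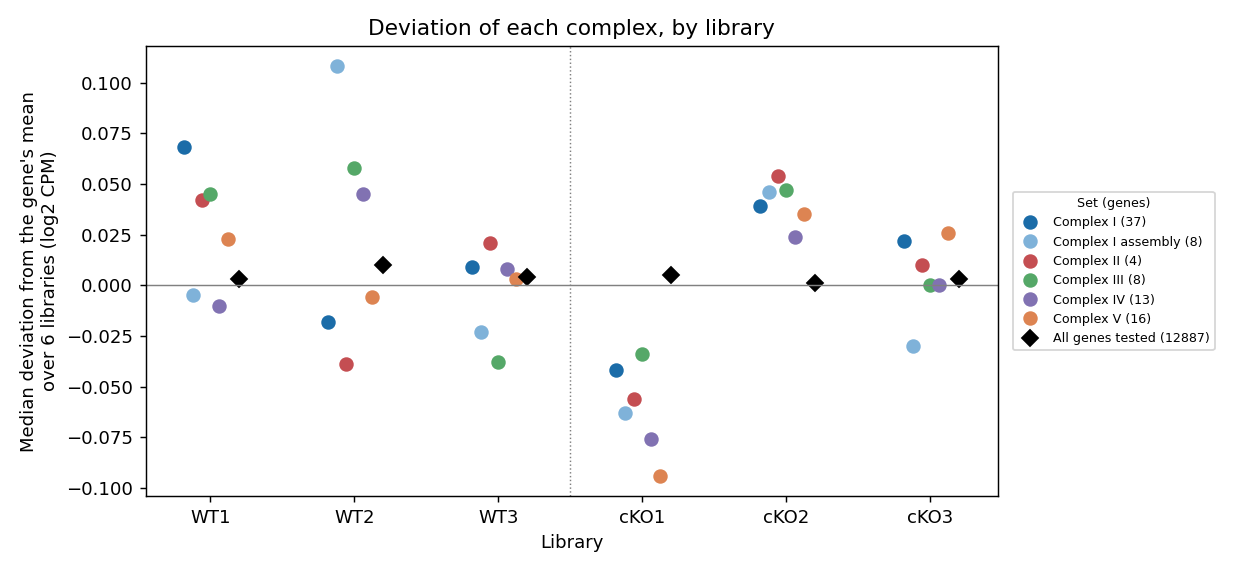
Median deviation (log2 CPM) of the tested genes of each set from their own mean over the 6 libraries, by library, with all 12887 tested genes as diamonds. In cKO1 all 6 sets lie below 0, from -0.034 to -0.094, while the median over all genes is 0.005. In cKO2 all 6 sets lie above 0, from 0.024 to 0.054.

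Most of these genes have short transcripts, with a median length of 698 bases as implied by the deposited FPKM, against 2950 bases for all genes tested. In cKO1, short genes in general were low: the median deviation over all genes was -0.098 under 512 bases (190 genes), -0.079 from 512 to 1024 (833), -0.038 from 1024 to 2048 (2836), 0.005 from 2048 to 4096 (5153) and 0.062 above 4096 bases (3875). For the genes of the chain it was -0.081 (25 genes), -0.051 (35), -0.067 (22) and -0.038 (4) in the first 4 of these bins. The same library held the 192.9 CPM of erythroid marker transcripts. It also had the highest score on the first principal component of all genes (33.2, 36.1% of the variance), with WT2 next at 25.4. Among the 6 signs of RNA handling and stimulation, the heat shock genes Hspa1a and Hspa1b and the immediate early gene Fos were lowest in cKO1. Jun was lowest there only narrowly (908.8 CPM, against 937.3 CPM in cKO3). Egr1 (271 CPM in cKO1, 168.6 to 288.3 CPM elsewhere) and Tnfaip3 (4612 CPM, 1152 to 4898 CPM elsewhere) were not low in it. The list summed to 5971 CPM in cKO1, inside the range of the other libraries (3687 to 6588 CPM). Hspa1a stood at 162.8, 12.7 and 125.3 CPM in WT1 to WT3 and at 5.35, 26.4 and 135.8 CPM in cKO1 to cKO3, so that WT2 was the next lowest, and Hspa1b followed the same order of the lowest libraries. Fos stood at 324.9 CPM in cKO1 and at 567.9 to 1169 CPM in the other libraries. The part of transcript length, erythroid transcripts, these RNA handling signs or that component in the low values of cKO1 was not tested.

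**Figure D5:**
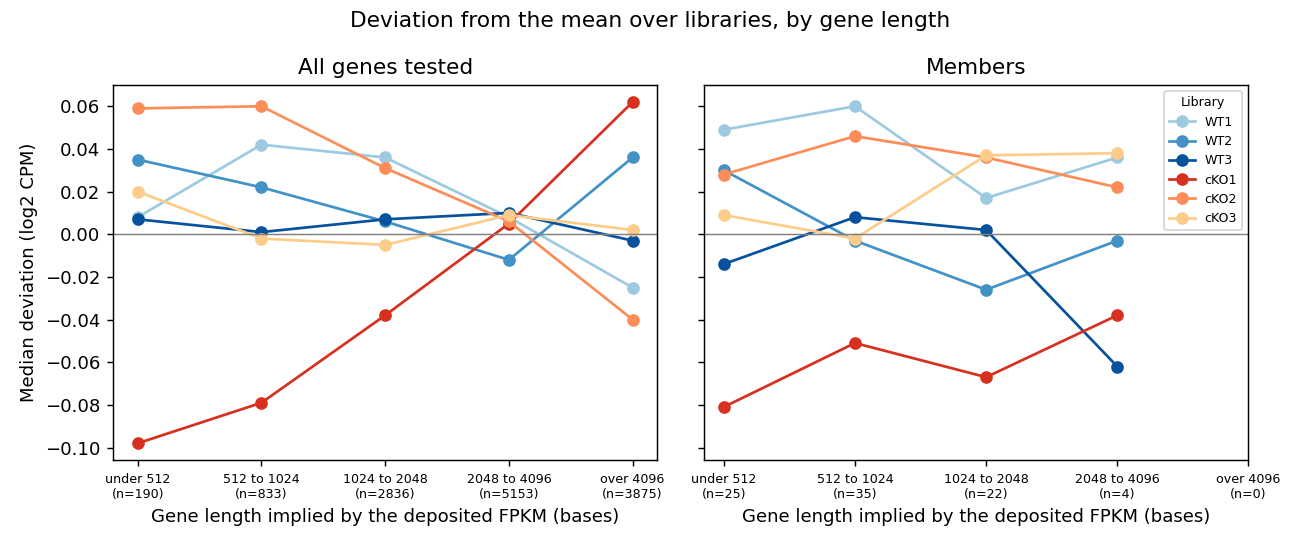
Median deviation (log2 CPM) of genes from their mean over the libraries, by gene length implied by the deposited FPKM, for all genes tested (left) and the genes of the respiratory chain and ATP synthase (right), 1 line per library. In cKO1 the line over all genes climbs from -0.098 for the shortest to 0.062 for the longest genes, and at both ends the other 5 libraries lie nearer 0. The bin of 2048 to 4096 bases on the right holds 4 genes.

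Beyond the 92 genes, 85 further genes of the pathway were listed: electron carriers, coenzyme Q synthesis, assembly factors of each complex, and factors of mitochondrial transcription. Of these, 82 were tested and 0 were called by edgeR. At an unadjusted p under 0.05 the count was 4 (4.9%, against 7.69% of all genes), all higher in cKO. The median fold change of the 82 was 0.001. Twnk, the helicase that unwinds mitochondrial DNA, stood at 18.97, 18.24 and 18.5 CPM in WT1 to WT3 and at 21.6, 22.5 and 23.7 CPM in cKO1 to cKO3. The genotypes did not overlap, the fold change was 0.28 ± 0.08, and the adjusted p was 0.354. Lrpprc, which stabilises mitochondrial mRNA, had 0.23 ± 0.08 (adjusted p 0.533), and Uqcc1, an assembly factor of complex III, 0.18 ± 0.07 (adjusted p 0.624). The genotypes did not overlap in either. Sco2, which brings copper to complex IV, had 0.56 ± 0.23 (adjusted p 0.634). Its genotypes overlapped, with WT2 (8.55 CPM) above cKO1 (8.37 CPM). Cyc1, the cytochrome c1 that Uqcrh lies beside, had 0.06 ± 0.07, and Cycs, the cytochrome c that carries electrons from complex III to complex IV, had -0.21 ± 0.17. Among the transcription factors whose motifs were searched, Nrf1 had 0.16 ± 0.12, Gabpa 0.01 ± 0.07, Yy1 0.10 ± 0.08 and Esrra 0.03 ± 0.08, and none was called. Ppargc1a, a coactivator of mitochondrial biogenesis, was at 0.03 to 0.15 FPKM and untested, and its relative Ppargc1b had -0.05 ± 0.11.

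Of the 9 genes whose groups did not overlap, 8 had a promoter in RefSeq. The ETS motif was in 4 of these 8 (24% of the 75 promoters and 20.5% of those of tested genes hold it). The NRF1 motif was in 1, Atp5c1 (25.3% and 11.5%), and the YY1 motif in 1 (14.7% and 5.4%). Nothing is read from counts over 8 promoters. The ETS matches of Uqcrh and Cox6b1 are those printed above. Sdha and Ndufb4, with repeated NRF1 matches, had fold changes of 0.01 and 0.07. On the X chromosome, which carries the Foxp3 locus, lay 3 tested genes: Ndufa1 (0.08 ± 0.12), Ndufb11 (-0.01 ± 0.11) and Cox7b (-0.07 ± 0.08).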

How the data were processed

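Gene-level values of 6 RNA-seq libraries (3 WT, 3 cKO) were used. The authors deposited estimated counts per gene, not normalized, of which 45.4% to 46.3% per library were not whole to within 0.01, and a further set of values taken to be FPKM from their relation to counts and gene lengths. The build mm10 and the tools featureCounts 1.5.0-p3, HISAT2 2.0.5 and DESeq2 1.16.1 come from the submitters' processing notes, which give no role or order. The step that made fractions was not given in the sources used here. The 956 genes without a name stayed in.

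Estimated counts were rounded. Genes passing filterByExpr (minimum count 10) in edgeR 4.0.16 under R 4.3.3 were kept (12887), scaled by TMM and tested by the two-sided quasi-likelihood F test with group as the only term, with Benjamini-Hochberg adjustment over all of them. Calls are adjusted p under 0.05. The common biological coefficient of variation was 16.7%. Standard errors and 95% intervals were derived from the F statistic. DESeq2 1.42.0, limma-voom 3.58.1, other scalings and filters, a replicate block and leaving out libraries were alternatives. The code was tested on simulated data.

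Named genes were, in each complex and among the assembly factors, the 3 with the lowest p and the 2 with the highest FPKM, all of complex II, all isoform sets, and untested genes by level. Core subunits, Ndufab1, Ndufa8, Ndufb4, Ndufb4c, the X-linked genes and the genes outside the 92 were added after their values were seen. A tested gene that is counted in the totals is not reported here. The genes and lists were chosen with earlier results of these data known. Near-identical transcripts (at least 95% identity over at least 50% of the length) were sought in GENCODE M21 with BLAST 2.17.0, and 12 of 90 genes with a transcript there had one in another gene, so that their counts are uncertain: Ndufs3, Ndufs5, Ndufs6, Ndufb11, Uqcrb, Cox7c, Atp5c1, Atp5o, Atp5h, Atp5g2, Atp5k and Atp5l. All 92 genes matched RefSeq by Entrez identifier. Of the 75 promoters, 58 had their first bases near the start of a GENCODE transcript.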

Additional observations from a re-analysis of the deposited data

How the results depend on the processing

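The count of called genes among the 86 was 0 under all 16 alternatives, and so was that among the other genes of the pathway. At an unadjusted p under 0.05 the count among the tested genes was 0 to 3, where 5.2% to 11.4% of all genes passed. The 3 came from the fit without WT2 and cKO1 together, in which 11.4% of all genes passed. Over all genes 27 were called, against 177 with DESeq2, 43 without the filter and 48 with robust empirical Bayes. The number called was 0 with the replicate number as a block and 71 without WT2 and cKO1 together. With single libraries left out it was 0 to 30 (0 in each case but WT2). Same-numbered libraries correlated at -0.28, 0.06 and 0.26 in their deviations from the group means. With 3 libraries per genotype these r cannot tell whether the numbers pair the libraries. The block changed no call among the 86. The median fold change ran from -0.051 (without cKO2) to 0.012 (without WT2 and cKO1), over the 85 to 92 genes that each fit tested. Over the fits without a single library the median of complex I assembly factors ran from -0.087 (cKO2 left out) to 0.052 (WT2), of complex II from -0.04 (WT2) to 0.043 (WT1) and of complex V from -0.076 (cKO2) to 0.03 (cKO1). For complex I it ran from -0.062 (cKO2) to 0.018 (cKO1) and for complex III from -0.013 (WT3) to 0.034 (WT2). That of complex IV was 0.015 without WT2 and cKO1. The cause was not tested.

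Of 526 comparisons of 33 named genes with the alternatives, 22 changed sign, in 11 genes. Over the fits without a single library the range was -0.074 to 0.071 for Sdha, -0.037 to 0.09 for Sdhb, -0.085 to 0.083 for Sdhc, -0.076 to 0.096 for Ndufaf8, -0.022 to 0.071 for Cox4i1, -0.039 to 0.058 for Cox6a1, -0.035 to 0.001 for Ndufa4, -0.074 to 0.105 for Atp5g1 and -0.269 to 0.107 for Atp5g2. Other named genes kept their sign but moved: the range was -0.667 to -0.137 for Cox6b2, -0.249 to -0.062 for Ndufaf1, 0.049 to 0.185 for Uqcrc1, -0.213 to -0.082 for Ndufv2, -0.194 to -0.081 for Uqcrb, -0.231 to -0.1 for Atp5h, 0.038 to 0.122 for Atp5b, 0.034 to 0.159 for Atp5d, -0.095 to -0.005 for Sdhd, -0.108 to -0.008 for Cox7b, 0.035 to 0.107 for Cox7a2, 0.044 to 0.103 for Cox7a2l and -0.294 to -0.132 for Atpif1. Without WT2 and cKO1 together the sign changed to -0.044 (Sdha), -0.024 (Sdhc), 0.015 (Sdhd), -0.037 (Cox6a1), 0.008 (Cox7b) and 0.079 (Atp5g2). Tkt passed the threshold with DESeq2, library size alone, no filter, the stricter filter, robust empirical Bayes, the newer edgeR fit and without WT2 and cKO1, and kept its direction under all 16. Depth limits Cox6b2, at under 1 CPM, whose interval is the widest.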
